A study of Mus musculus with 9 samples.

Results

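Peroxiredoxins 1 to 6 (Prdx1 to Prdx6), the superoxide dismutases Sod1 and Sod2, catalase (Cat) and glutathione peroxidase 1 (Gpx1) are the main enzymes that remove superoxide and peroxides inside liver cells. They were chosen by gene symbol, and all 10 were found among the 27179 genes of the deposited table. The animals were C57BL/6J mice labelled wild type, injected at 17 months of age into the retro-orbital sinus with an AAV8 vector and sampled 3 weeks later. In every mouse the vector carried saCas9, a small Cas9 nuclease, under TBG, a promoter active in hepatocytes, and a U6-driven guide RNA. The guide was directed at Rosa26, a locus commonly cut as a neutral control (sgRosa26, n = 4, libraries A to D), or at Ccnd1, which encodes cyclin D1 (sgCcnd1, n = 5, libraries E to I). The groups thus shared the vector, the dose and the nuclease, and cutting at either locus was not measured here. Poly(A) RNA of a piece of whole liver lobe was sequenced, so that transcripts of unedited cells of other types were counted with those of hepatocytes, and fewer cells of a type cannot be told apart from less RNA per cell. The letters name libraries in the order of the table's columns, which give a guide target and an animal number.

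Superoxide leaks from the respiratory chain and from oxidases, and superoxide dismutases convert it to hydrogen peroxide. Sod1 is the copper and zinc enzyme of the cytosol, and Sod2 the manganese enzyme of the mitochondrial matrix. Catalase breaks down hydrogen peroxide in peroxisomes, which are abundant in hepatocytes. Gpx1, a selenoprotein, reduces peroxides with glutathione, and the peroxiredoxins do so through a reactive cysteine that most of them restore with thioredoxin. Several of these genes, Prdx1 among them, are known targets of NRF2 (encoded by Nfe2l2), a transcription factor that KEAP1 holds back until oxidants or electrophiles release it.

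The 9 liver libraries held from 10.8 M to 20.2 M gene-assigned reads, and no difference in depth between the groups was detectable (exact two-sided permutation p = 0.667). The members were well covered: the least read member value rested on 675 reads and the most read on 67545. Precision from depth covers counting error only, 3.85% at 675 reads. Ccnd1 fell from 744 ± 109.8 (SD, n = 4) to 362 ± 40.6 normalized counts (SD, n = 5), with a limma adjusted p of 0.0116 and an exact permutation p of 0.00794, the smallest that 4 against 5 libraries can give. That adjusted p rose to between 0.0559 and 0.0852 when library B, D, F, H or I was left out. Library H stood apart from the rest in its Y-linked transcripts: Ddx3y was at 2.00 normalized counts there, while the other 8 ranged from 809.9 to 1154. The deposited values covered 9 hepatocyte markers, of which 0 passed the test in either direction, and their summed level was 1811243 to 2200662 normalized counts in sgRosa26 and 1733553 to 2209528 in sgCcnd1.

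Some markers of several other cell types were lower in sgCcnd1 by an unadjusted test. At an unadjusted limma p under 0.05, 2 of 9 Kupffer and macrophage, 5 of 9 lymphocyte, 3 of 8 stellate cell and 2 of 6 cholangiocyte markers tested were lower in sgCcnd1, where 5.74% of all genes tested were lower and 5.22% higher. By the same measure 0 of 8 endothelial, 0 of 4 neutrophil and 0 of 4 red cell markers tested differed. Their summed levels overlapped between groups in every one of these lists. For Kupffer and macrophage markers the sum was 3438 to 4204 normalized counts in sgRosa26 and 2973 to 3675 in sgCcnd1. The 9 lymphocyte markers were low, with a sum of 258 to 587 in sgRosa26 and 194 to 493 in sgCcnd1. Estimates were above 0 for 3 of 9 Kupffer and macrophage, 0 of 9 lymphocyte, 1 of 8 stellate cell and 2 of 6 cholangiocyte markers. Of 13 clock genes tested, 5 were higher and 2 lower at an unadjusted p under 0.05, and the labels give no harvest time. Of 8 periportal markers 2 were higher, of 8 pericentral markers 1 was lower and of 7 immediate early genes tested 1 was lower. None of the genes in these lists passed the adjusted threshold with limma, and their part in the members' values was not tested.

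Only Prdx1 and Sod1, of the 9 members with a promoter window in RefSeq (build GRCm38.p6), held the core of the antioxidant response element that NRF2 binds. The motif searched was TGACNNNGC on both strands, in the 250 bases before and 50 after the RefSeq start of the gene. It was present in 12.4% of all 32851 windows of this length. A match of letters is a description and not a shown binding site. Both windows are printed because Nfe2l2 had lower values in every sgCcnd1 library, with capitals for the match, which reads on the opposite strand in both. In Prdx1 it began 133 bases before the RefSeq start and in Sod1 56 bases before it. The GENCODE starts of both genes, printed with their coordinates, lie further upstream, so the distance from those is shorter. They lie on the plus strand at chr4:116685349-116685648 (Prdx1) and chr16:90220512-90220811 (Sod1).
Prdx1: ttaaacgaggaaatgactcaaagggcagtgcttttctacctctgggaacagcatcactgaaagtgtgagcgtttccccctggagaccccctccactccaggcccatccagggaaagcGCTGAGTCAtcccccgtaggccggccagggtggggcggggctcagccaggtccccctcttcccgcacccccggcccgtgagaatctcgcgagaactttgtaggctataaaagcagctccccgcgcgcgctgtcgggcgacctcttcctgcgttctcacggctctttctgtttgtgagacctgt
Sod1: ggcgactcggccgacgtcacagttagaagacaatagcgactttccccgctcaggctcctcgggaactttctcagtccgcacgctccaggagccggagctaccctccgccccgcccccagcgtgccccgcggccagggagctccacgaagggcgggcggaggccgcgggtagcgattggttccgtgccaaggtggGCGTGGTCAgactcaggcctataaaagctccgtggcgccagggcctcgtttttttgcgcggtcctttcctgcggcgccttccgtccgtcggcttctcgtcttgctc

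No member passed the test between groups. With limma, 0 of 10 passed at an adjusted p under 0.05, against 0.0077% of the 12993 genes tested, which is Ccnd1 alone. At an unadjusted p under 0.05 the count was again 0 of 10, where 11.0% of all genes passed. On reads recovered from the values, edgeR called 0 of 10 (0.0077% of all genes) and DESeq2 0 of 10 (0.8% of all genes). The groups overlapped in each of the 10, and did not overlap in 3.89% of all genes (1.92% higher and 1.97% lower in sgCcnd1). Adjusted limma p-values of the members ran from 0.538 for Prdx4 to 0.941 for Gpx1. Over the 10 members the 95% intervals reached from 0.798-fold, the lower bound for Gpx1, to 1.40-fold, the upper bound for Prdx1. Each interval holds for 1 gene and not for the 10 jointly, so changes beyond these bounds are not excluded. Without library A the lower bound for Gpx1 was -0.41 on the log2 scale, against -0.33 with all libraries. On the log2 scale 9 of 10 estimates were above 0, as were 52.9% of all genes tested and 71.0% of the 2157 genes averaging 1000 normalized counts or more, a level that all 10 members exceeded. The median log2 fold change of the members was 0.14, beside 0.01 for all genes tested and 0.07 for those abundant genes. It depended on scaling: with quantile normalization the members' median was 0.05, with 8 of 10 estimates above 0. Under that scaling Cat was at 0.06, Prdx1 at 0.11, Prdx2 at 0.04, Prdx5 at 0.08, Prdx6 at 0.03, Sod1 at 0.02, Sod2 at 0.10 and Gpx1 at -0.14.

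**Figure D1:**
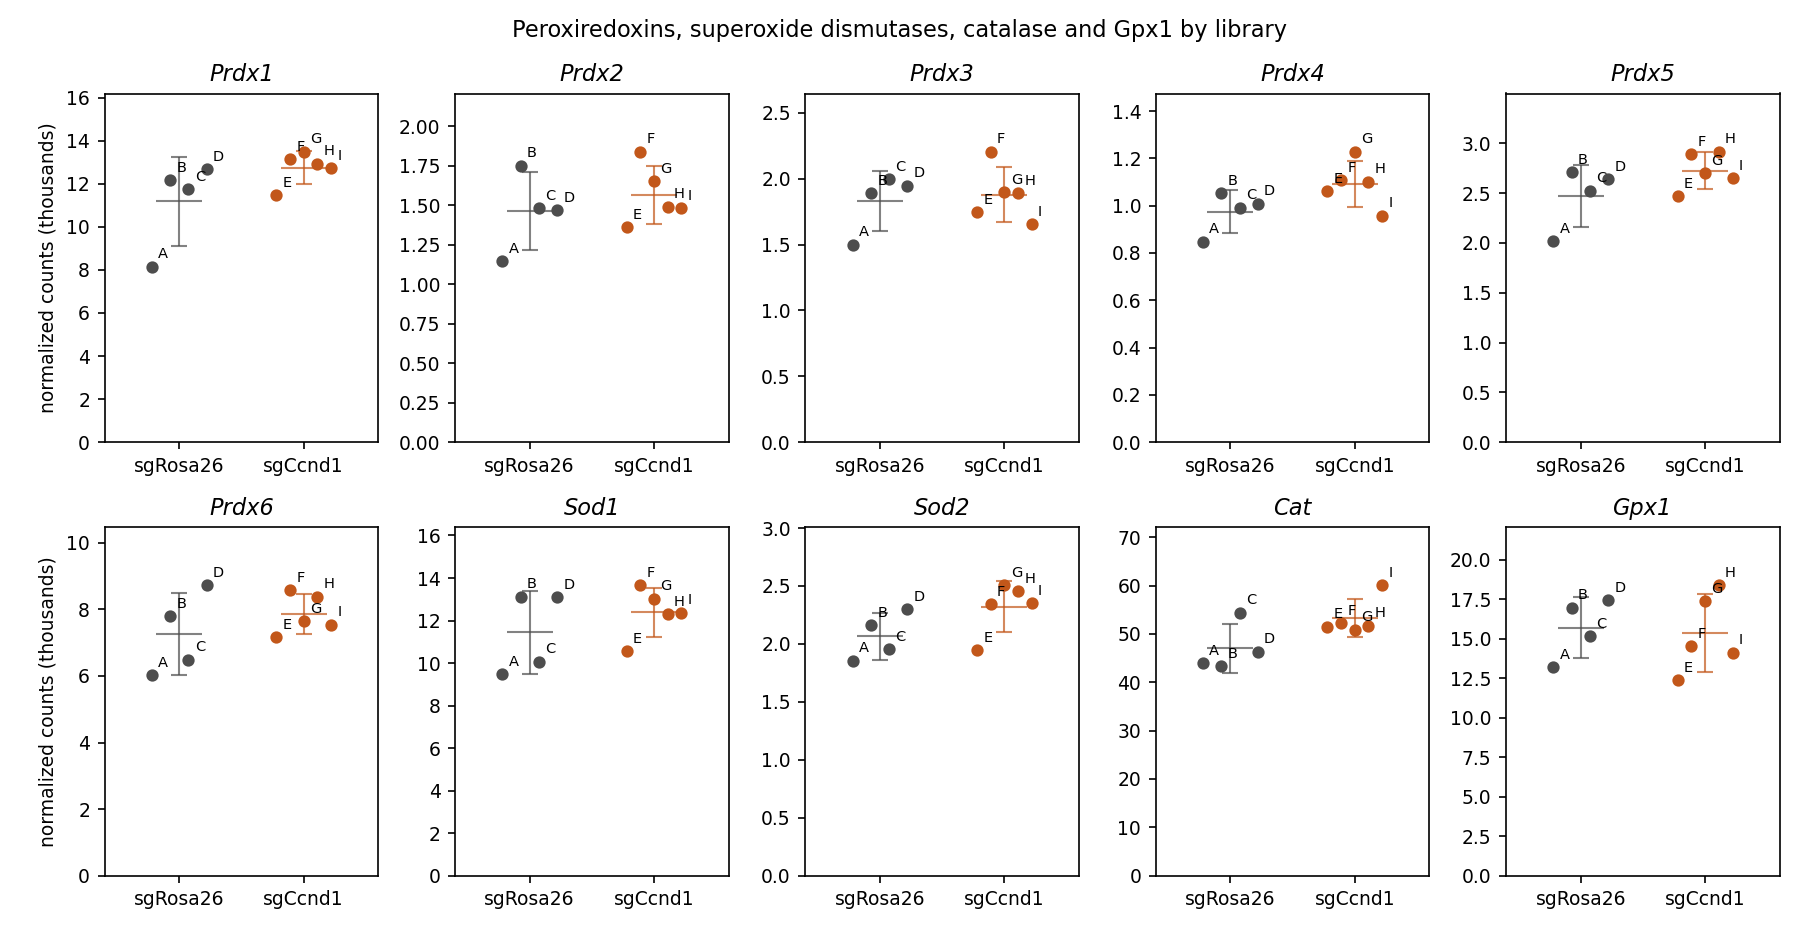
Normalized counts (in units of 1000, axes from 0) of the 10 genes in each of 9 livers, with points lettered by library and bars for the mean ± SD of sgRosa26 (n = 4) and sgCcnd1 (n = 5). The groups overlap in every panel, and library A is the lowest of the 9 in 8 of them.

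Prdx1 and Prdx2 are the cytosolic typical 2-Cys peroxiredoxins, the first abundant in liver and the second in red cells. Prdx1 was at 8142, 12167, 11762 and 12666 normalized counts in the controls A to D. In sgCcnd1 it was at 11471, 13155, 13492, 12935 and 12709 in E to I. Library A was far below the other 3 controls, and 4 of 5 sgCcnd1 libraries lay just above the highest control, with E below it. The means were 11184 ± 2062 (SD, n = 4) and 12752 ± 772 (SD, n = 5). The difference on the log2 scale was 0.21 (standard error 0.13, 95% interval -0.07 to 0.48, limma adjusted p = 0.566). Without library A the log2 fold change was 0.06 (95% interval -0.13 to 0.26). The coefficient of variation among the controls was 18.4% with A and 3.71% without it.

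Prdx2 was at 1146, 1750.4, 1479 and 1467 normalized counts in A to D. In E to I it was at 1359, 1839, 1653, 1491 and 1482. Without A the range of the controls lay inside that of sgCcnd1, and the log2 fold change was 0.11 with all libraries and less than 0.01 below 0 without A (95% intervals -0.16 to 0.37 and -0.24 to 0.23). The summed level of 8 red cell markers was 1163 to 2445 normalized counts in sgRosa26 and 1894 to 2190 in sgCcnd1. Most of it was Alas2, the heme synthesis enzyme of red cell precursors, with 965 of the 1163 in A. Of the globins, Hba-a2 was lowest in A (25.8), while Hba-a1 and Hbb-bs were lowest in H (70.0 and 48.0) and at 97.1 and 71.3 in A. The part of red cell RNA in the Prdx2 values was not tested.

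Prdx3 is the mitochondrial 2-Cys peroxiredoxin, and Prdx4 the one of the endoplasmic reticulum, where it also helps to form disulfide bonds. Prdx3 was at 1499, 1888, 1994 and 1947 normalized counts in A to D, and at 1747, 2205, 1896, 1887 and 1652 in E to I. The lowest and the highest values of the 9 came from different groups, A and F, but 4 of 5 sgCcnd1 libraries lay within the range of the controls. Its log2 fold change was 0.04 (95% interval -0.20 to 0.27, limma adjusted p = 0.926). The direction turned without A (-0.056), without F (-0.022) and with quantile normalization (-0.028).

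Prdx4 was at 847, 1054, 991 and 1009 normalized counts in A to D, and at 1063, 1106, 1229, 1102 and 958 in E to I. Here 4 of 5 sgCcnd1 libraries stood above all controls and I, the shallowest library, stood below 3 of them. The log2 fold change was 0.16 (standard error 0.09, 95% interval -0.04 to 0.36), with the smallest limma p of the family before adjustment (0.105) and 0.538 after it. Without A the estimate was 0.10.

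Prdx5, an atypical 2-Cys enzyme found in mitochondria, peroxisomes and cytosol, was at 2015, 2711, 2524 and 2638 normalized counts in A to D. In E to I it was at 2471, 2889.8, 2697, 2916 and 2651. Only F and H exceeded the highest control. The log2 fold change was 0.15 with all libraries (95% interval -0.07 to 0.36) and 0.05 without A.

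Prdx6, the 1-Cys member, which works with glutathione and also has phospholipase activity, was at 6027, 7792, 6486 and 8729.8 normalized counts in A to D. In E to I it was at 7159, 8586, 7655, 8378 and 7543. All 5 sgCcnd1 libraries fell inside the range of the controls, whose highest value was D. The log2 fold change was 0.13 (95% interval -0.12 to 0.38, limma adjusted p = 0.703). It was 0.04 without A, 0.08 without C and 0.22 without D.

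For the superoxide dismutases too the groups overlapped. Sod1 was at 9469, 13121, 10063 and 13107 normalized counts in A to D, and at 10548, 13666, 13033, 12286 and 12363 in E to I. The controls split into a low pair, A and C, and a high pair, B and D, and 4 of 5 sgCcnd1 libraries lay between the pairs. Its log2 fold change was 0.12 (95% interval -0.14 to 0.39, limma adjusted p = 0.734). It was 0.04 without A and 0.07 without C, the low pair, and 0.20 without either B or D.

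Sod2, also known as a gene that inflammatory cytokines induce, was at 1854, 2161, 1952 and 2302 normalized counts in A to D. In E to I it was at 1946, 2342, 2507, 2455 and 2353. All but E of the sgCcnd1 group lay above the highest control, by small margins. The means were 2067 ± 202 (SD, n = 4) and 2321 ± 221 (SD, n = 5). The log2 difference was 0.17 (95% interval -0.04 to 0.38, limma adjusted p = 0.542). Without A it was 0.12. The estimate stayed above 0 in all 22 alternatives run, as did those of Prdx1, Prdx4, Prdx5, Prdx6, Sod1 and Cat.

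Catalase was the most read member, with 42.1% to 51.8% of the reads of the 10 genes in a library. It was at 43927, 43356, 54383 and 46302 normalized counts in A to D, and at 51492, 52294, 50892, 51722 and 60104 in E to I. Control C was higher than 4 of 5 sgCcnd1 libraries, whereas the other 3 controls were lower than all 5. The means were 46992 ± 5089.6 (SD, n = 4) and 53301 ± 3836 (SD, n = 5). On the log2 scale the difference was 0.18 (standard error 0.12, 95% interval -0.07 to 0.44, limma adjusted p = 0.582). Without C the groups of Cat did not overlap, as in 6.85% of all genes without C, and its log2 fold change was 0.26 with a limma adjusted p of 0.481.

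Gpx1 was the only member with an estimate below 0. It was at 13212, 16964, 15175 and 17437 normalized counts in A to D, and at 12359, 14535, 17364, 18396 and 14121 in E to I. Both the lowest and the highest of the 9 values, E and H, belonged to sgCcnd1. The log2 fold change was -0.04 (95% interval -0.33 to 0.25, limma adjusted p = 0.941). It was -0.12 without A and -0.11 without H, and turned to 0.0018 without B, 0.015 without D and 0.036 without E. The spread within sgCcnd1, with a coefficient of variation of 16.1%, was the widest of the 10 members in that group.

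**Figure D2:**
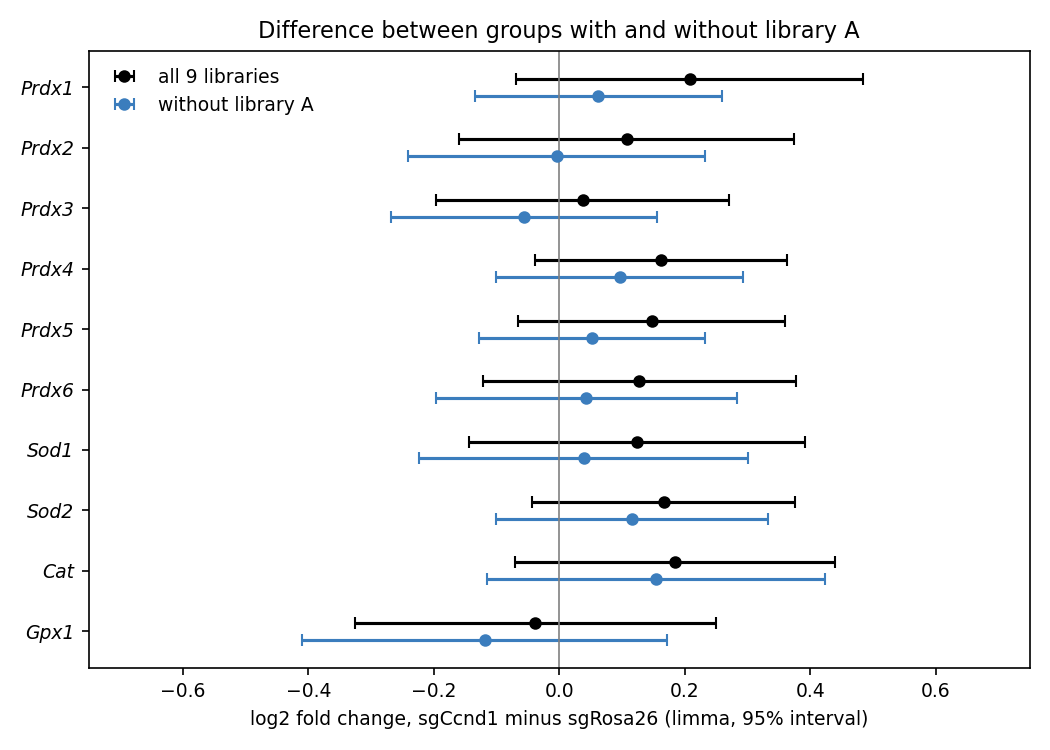
Log2 fold change of each gene, sgCcnd1 minus sgRosa26, with limma 95% intervals, from all 9 libraries (black) and without library A (blue). Every interval contains 0 in both fits. Each of the 10 estimates is lower without library A, which follows from A lying below the mean of the other controls for each gene.

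Each of these estimates was lower without library A. This follows by arithmetic, because for each member the mean of B, C and D lay above A. That library was the lowest of the 9 libraries for 8 of 10 members and the lowest control for 9 of 10, Cat being the exception, while it was the lowest of 9 for 16.2% of all genes tested and 26.9% of the abundant ones, and the lowest control for 29.5% of all genes. Leaving it out brought the members' median log2 fold change from 0.14 to 0.05 and left 7 of 10 estimates above 0. The median of all genes tested went from 0.014 to 0.0050. Leaving out B, D or E moved the members' median the other way, to 0.19, 0.18 and 0.18. Each time 10 of 10 estimates were above 0 and 0 of 10 past the threshold. Relative to the mean of B, C and D on the log2 scale, A differed by a median of -0.34 over the members, from -0.58 for Prdx1 to -0.12 for Cat. A also differed from the other controls by transcript length over the whole table. The same log2 difference had a median of -0.27 over 785 genes with annotated transcripts under 1 kb and -0.13 over 2702 genes of 1 to 2 kb. It was 0.00066 over 5127 genes of 2 to 4 kb and 0.15 over 3942 genes of 4 kb or more. Of the members, 2 are under 1 kb, 4 have 1 to 2 kb, 3 have 2 to 4 kb and 1 has more, and each but Prdx4 stood below the median of its class. The part of transcript length in the members' values was not tested.

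**Figure D3:**
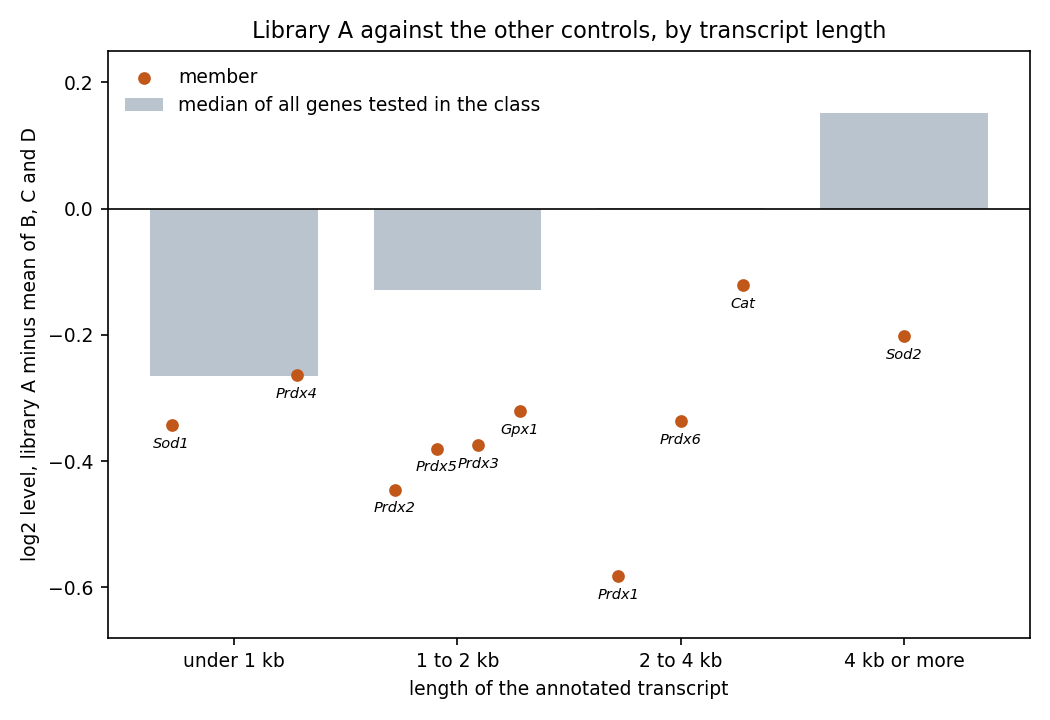
Log2 level in control library A minus the mean of controls B, C and D, by length of the annotated transcript, with grey bars for the median of all genes tested in a class and points for the 10 members. Bars run from -0.27 for genes under 1 kb to 0.15 for genes of 4 kb or more, and every member lies below 0.

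Across the 9 libraries most members were high and low in the same samples. The Pearson r of log2 levels between Prdx1 and Prdx5 was 0.94 and that between Prdx6 and Sod1 0.91, while Cat gave 0.06 with Sod1 and -0.19 with Gpx1. Library F held the highest value of 3 members (Prdx2, Prdx3 and Sod1), G of 3 (Prdx1, Prdx4 and Sod2), H of 2 (Prdx5 and Gpx1), D of 1 (Prdx6) and I of 1 (Cat). Library E was below the mean of its group for each member. Over the 9 libraries, among 8943 genes averaging 100 normalized counts or more, the one whose log2 levels were most like those of Prdx6 was Txn1, thioredoxin 1, with a Pearson r of 0.98. For Sod1 it was Tmem242 (0.98), for Prdx5 Cyb5d2 (0.98) and for Prdx3 D130020L05Rik (0.97). For Sod2 it was Cyp2e1 (0.96), for Cat Mtif2 (0.96), for Prdx1 Fcgrt (0.96), for Prdx2 Dpcd (0.97), for Prdx4 Abtb1 (0.95) and for Gpx1 Nr1h3 (0.95). These correlations are descriptions over n = 9 libraries that share the low values of A, and each gene named is the best of 8943.

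**Figure D4:**
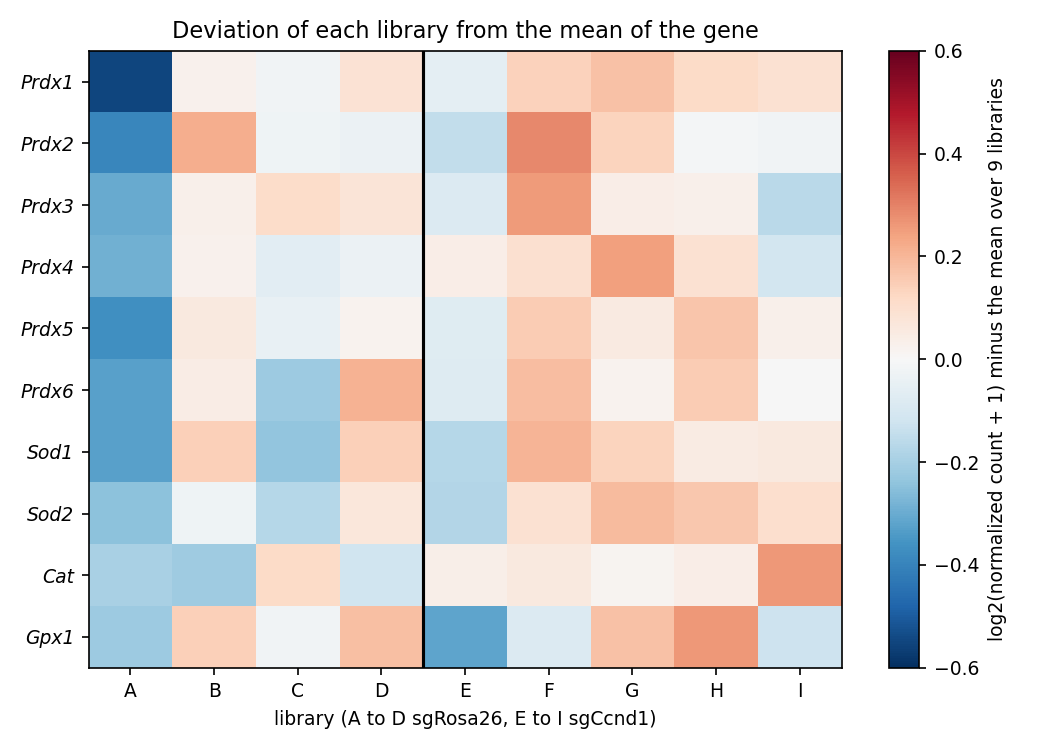
Log2(normalized count + 1) of each gene in each library minus the gene's mean over 9 libraries, on a scale from blue (lower) to red (higher), with a line between sgRosa26 (A to D) and sgCcnd1 (E to I). Library A is blue in every row, and the Cat row has its highest value in library I.

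Per length of transcript, the order of the levels was led by Cat. Its mean over the 9 libraries was 19325 normalized counts per kb, followed by Sod1 at 18661 and Gpx1 at 14466, and the ranges of neighbours in this order overlapped. Prdx1 followed at 5255 per kb and overlapped in range with Prdx6 at 3182, but not with Gpx1. Prdx5 at 2070.2 per kb overlapped with neither neighbour. Prdx3 (1257), Prdx4 (1050.3) and Prdx2 (942) formed a run of overlapping ranges, and Sod2 was last at 377 per kb. These levels use the longest principal transcript in GENCODE M21, and with the shortest one, of 0.877 in place of 2.294 kb, Prdx1 would be at 13746 per kb, beside Gpx1. Prdx2 would likewise be at 1292 per kb with its shortest one of 1.175 kb, above Prdx3 and Prdx4. The 10 genes together took 0.585% to 0.715% of all gene-assigned reads in sgRosa26 and 0.661% to 0.754% in sgCcnd1.

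The members lie on 9 chromosomes of GRCm38, with Prdx3 and Prdx5 both on chromosome 19. By GENCODE M21, Cat is on chromosome 2 (103453849 to 103485160, minus strand, 13 exons) and Prdx1 on chromosome 4 (116685544 to 116700822, plus strand, 6 exons). Sod1 is on chromosome 16 (90220754 to 90226329, plus strand), Sod2 on chromosome 17 (13006846 to 13040063, plus strand) and Gpx1 on chromosome 9 (108338903 to 108340343, plus strand, 2 exons). Prdx2 overlaps Junb and Rnaseh2a, Prdx5 overlaps Trmt112 and Sod1 overlaps Scaf4, all on the opposite strand, with means of 227 to 449.6 normalized counts. Overlap was taken over whole gene spans, and exons were not compared. The use of strand in counting is not given in the sources used here. Reads from any exon bases that these partners share therefore cannot be told apart. Copies could also share reads: Gm21399, a processed pseudogene 98.3% identical to Prdx1 over 597 bases, was listed at 627 ± 191 (SD, n = 4) and 758 ± 70.2 normalized counts (SD, n = 5). It was lowest in A, as Prdx1 was, and its log2 fold change was 0.33 (limma adjusted p = 0.534) with all libraries and 0.09 without A. Prdx6b, similar to Prdx6, had at most 1 read in any library.

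Nfe2l2, the regulator named above, was called lower by DESeq2 but not by limma. It was at 2217, 2171, 2071 and 2297 normalized counts in A to D and at 1673, 1684, 1484, 1578 and 1615 in E to I, so that all 5 sgCcnd1 libraries lay below all controls. Its log2 fold change of -0.45 (95% interval -0.60 to -0.29) did not pass with limma (adjusted p = 0.135) and passed with DESeq2 (adjusted p = 9.26e-07). Keap1, its inhibitor, had a log2 fold change of -0.07 (95% interval -0.26 to 0.11), with -0.14 without C and -0.05 without either D or I. Of 22 NRF2 targets tested, 0 passed the adjusted threshold in limma, 2 were higher at an unadjusted p under 0.05 and 0 were lower, where 5.22% of all genes were higher and 5.74% lower, with a median log2 fold change of 0.07. Of 17 regulators tested, 4 were higher and 1 lower at an unadjusted p under 0.05, and of 11 NADPH supply genes 1 was higher, against the same shares of all genes. Among NRF2 targets the 2 with the smallest p were Me1, malic enzyme (0.73, limma adjusted p = 0.334), and Ftl1, ferritin light chain (0.51, limma adjusted p = 0.344). Me1 was at 2009 normalized counts in A and 4517 to 5059 in the other controls, and its log2 fold change was 0.42 without A. That of Ftl1 was 0.28 without C. Whether the members differed from Nfe2l2 in their response was not tested.

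No partner that keeps the peroxiredoxins reduced passed the test. Txn1 and Txn2, the cytosolic and mitochondrial thioredoxins, had log2 fold changes of 0.17 (95% interval -0.14 to 0.48) and -0.10 (-0.27 to 0.08). Txn1 was at 0.06 without A, at 0.07 without C and at 0.30 without D, and Txn2 at -0.06 without D. With quantile normalization Txn1 was at 0.09 and Txn2 at -0.16. Txnrd1 and Txnrd2, the thioredoxin reductases, were at 0.07 (-0.12 to 0.25) and 0.22 (-0.01 to 0.45), and Srxn1, which repairs overoxidized peroxiredoxins, at -0.18 (-0.49 to 0.12). Txnrd1 ranged from 0.02 without I to 0.11 without D, with 0.04 without A and 0.10 without G, and was at 0.0056 with quantile normalization. Srxn1 was at -0.06 without B, -0.29 without C and -0.12 without H. Of 13 thioredoxin cycle genes 0 passed the adjusted threshold. The smallest p in that list was that of Txnrd3, a reductase best known from testis, at 158 ± 17.3 (SD, n = 4) and 210.0 ± 15.3 normalized counts (SD, n = 5). All 5 sgCcnd1 libraries exceeded all controls for Txnrd3 (log2 fold change 0.41, limma adjusted p = 0.253). Txnip, which inhibits thioredoxin, was next, at 0.42 (limma adjusted p = 0.454), and at 0.26 without D.

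**Figure D5:**
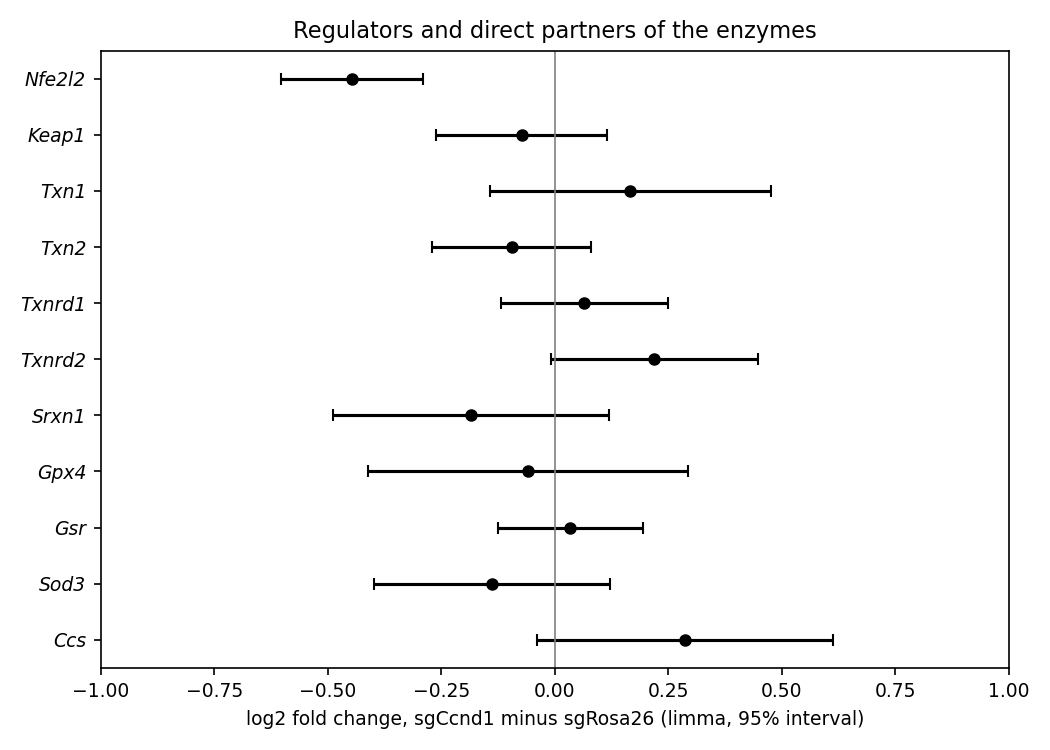
Log2 fold change, sgCcnd1 minus sgRosa26, with limma 95% intervals, of Nfe2l2 and Keap1 and of 9 direct partners of the enzymes. The interval of Nfe2l2 runs from -0.60 to -0.29, and those of the other 10 genes contain 0.

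Partners of Gpx1 and of the dismutases were also without a call. Gpx4, the glutathione peroxidase of membrane lipids, was at -0.06 on the log2 scale (95% interval -0.41 to 0.29) and Gsr, glutathione reductase, at 0.03 (-0.13 to 0.19). Gpx4 was at -0.25 without A, and turned to 0.040 without B and 0.067 without D. With quantile normalization Gpx4 was at -0.13 and Gsr turned to -0.032. Of 15 genes of the glutathione cycle tested and 14 of selenoprotein synthesis, 0 passed after adjustment. Ccs, which loads copper into Sod1, was at 0.29 (-0.04 to 0.61), and the extracellular dismutase Sod3 at -0.14 (-0.40 to 0.12). Ccs was at 0.18 without A and 0.19 without C, and Sod3 at -0.08 without B, -0.21 without E and -0.06 without H. The copper and manganese supply list had 0 of 11 genes past the adjusted threshold. Its smallest p belonged to Slc39a8, a manganese and zinc importer, at 0.25 (limma adjusted p = 0.408).

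Around catalase, 0 of 9 peroxisomal oxidases and 0 of 15 import genes tested passed after adjustment. Uox, urate oxidase, a source of peroxisomal hydrogen peroxide, was at 31699.7 ± 4707 (SD, n = 4) and 39428 ± 3884 normalized counts (SD, n = 5). Its log2 difference was 0.32 (limma adjusted p = 0.384). Hao1, glycolate oxidase, was at 0.32 (limma adjusted p = 0.484) and at 0.13 without A. Estimates were above 0 for 8 of 9 oxidases and 13 of 15 import genes, beside 52.9% of all genes tested and 71.0% of the abundant ones. The list medians were 0.07 and 0.13 with all libraries, and 0.04 and 0.08 without A.

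Of 12 oxidant sources outside the peroxisome, 4 were higher and 4 lower at an unadjusted p under 0.05, beside 5.22% and 5.74% of all genes, and 0 passed after adjustment. The 4 higher, named after their values were seen, were the monoamine oxidases Maoa (0.35) and Maob (0.26) and the disulfide-forming Ero1b (0.39) and P4hb (0.23). Over the list the groups did not overlap for 3 of 12 genes, all lower, beside 1.97% of all genes: Cybb, Cyba and Ncf1 (-0.42), the last also named after its values were seen. Cybb and Cyba, the membrane subunits of the phagocyte NADPH oxidase, had lower values in all 5 sgCcnd1 libraries than in any control. Cybb was at 209 ± 14.6 (SD, n = 4) and 150.2 ± 27.3 normalized counts (SD, n = 5), and Cyba at 131 ± 6.74 (SD, n = 4) and 94.2 ± 19.5 (SD, n = 5). Neither passed with limma (adjusted p = 0.270 and 0.297) or DESeq2 (adjusted p = 0.0888 and 0.201). Of these 2 genes, Cybb is typical of myeloid cells. The 9 Kupffer and macrophage markers had a median log2 fold change of -0.06, with 3 above 0 and 6 below. Of the 9, limma called 0, and DESeq2 called 2 lower, Lyz2 and Cd68, where it called 0.8% of all genes in either direction. The part of cell numbers in the values of Cybb and Cyba was not tested. Among 12 mitochondrial mass genes 0 passed after adjustment, with Hspd1, a matrix chaperone, at 0.26 (limma adjusted p = 0.328). Hspd1 was at 0.16 with quantile normalization.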

How the data were processed

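Poly(A) RNA-seq of liver from 9 mice was analysed. The deposited table holds a signal per gene that the authors name normalized counts. In each library 100% of the values above 0 were whole multiples of 1 number within 0.05, so they equal reads divided by a size factor. Per the submitters' processing notes, which give no roles, the tools were Trim Galore 0.6.7, HISAT2 2.2.1, featureCounts 2.0.3, FastQC, MultiQC and DESeq2, and the build was mm10 (GRCm38). Column names carry no replicate number, so columns were matched to groups only. Of the table's genes, 12993 with a mean of at least 10 were tested on log2(normalized count + 1), which understates changes of low genes, with limma 3.58.1 (eBayes with trend, two-sided, R 4.3.3). Benjamini-Hochberg adjustment ran over all of these genes (threshold 0.05). Count models on recovered reads used edgeR 4.0.16 and DESeq2 1.42.0. The scripts were tested on simulated data. Transcript lengths came from GENCODE M21, matched for 96.6% of genes tested.

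The members and gene lists were chosen with earlier results of these data known. Text names the members, Ccnd1, Nfe2l2, Keap1, 9 direct partners, genes of smallest p in pathway lists, and the gene most like each member. Lyz2 and Cd68 are the pair of smallest p in their list. Ddx3y and the overlapping or similar genes were named after their values were seen. No protein sequences were used here. Some genes of the lists are not reported here by name.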

Additional observations from a re-analysis of the deposited data

Results flagged for a closer look

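Of 86 groups of values examined (the genes of the enzyme family, their partners and the depth, in each group), 6 had a sample far from the others of its group, where chance gives about 4.3. Cat in sgCcnd1 library I had 60104 normalized counts, with the other 4 between 50892 and 52294. Slc39a8 was also highest in I, at 613 against 479.8 to 515. Control library A had a depth of 12.2 M reads, and the other controls had 16.2 M to 16.6 M. Keap1 had 672 normalized counts in control C and 806 to 816 in the other controls. In control D, Txnip was at 599 against 916 to 953 and Chac1 at 45.6 against 29.5 to 31.6. No explanation was tested for any of these values.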

How the results depend on the processing

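No paired analysis was possible because no column name gives the replicate of its library. The count models without library H, and DESeq2 without library A, were chosen after seeing the data. Over 22 alternatives, 0 of 220 member estimates passed the threshold, with adjusted p-values from 0.333 to 0.999 and log2 fold changes from -0.14 to 0.27. Quantile normalization turned Prdx3 to -0.028 and Gsr to -0.032. Without library A, DESeq2 put Prdx2 at -0.0081 and Prdx3 at -0.055. Leaving out 1 library at a time gave -0.0039 to 0.20 for Prdx2, -0.056 to 0.082 for Prdx3, -0.12 to 0.036 for Gpx1, -0.25 to 0.067 for Gpx4 and -1.11 to -0.96 for Ccnd1. The number of members whose groups did not overlap was then 0 to 2: Cat without C, Prdx1 and Sod2 without E, and Prdx4 without I, where 6.85%, 7.73% and 4.97% of all genes did not overlap. Over all genes, limma called 0 higher and 1 lower, and 2 lower with quantile normalization. DESeq2 called 34 higher and 70 lower, 11 and 27 without H, and 55 and 85 without A. The edgeR model without H called 0 lower, with Ccnd1 at -1.02 (adjusted p = 0.0559). Leaving out 1 library gave 0 to 2 lower. DESeq2 was the tool that called Nfe2l2, also without H or A. Fits without a library have fewer samples, and the cause of the other shifts was not tested.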
